A study of Homo sapiens with 2 samples.

Results

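ALDH1A3 and the other genes that make, break down, bind and sense retinoic acid were described in SW480, a human cell line established from a colorectal adenocarcinoma. The set holds 10 genes: the retinal dehydrogenases ALDH1A1, ALDH1A2 and ALDH1A3, the retinoic acid hydroxylases CYP26A1 and CYP26B1, the binding protein CRABP2, the retinal reductase DHRS3, and the receptors RARA, RARB and RARG. ALDH1A3 was chosen by its difference between these same arrays, and the other genes were chosen by their role in the pathway, so that the value of ALDH1A3 is given as a description. Every probe set that the platform annotation listed for a member was taken, which gave 11 of the 33297 probe sets on the array. Of the 18417 genes with a probe set of their own, 9 were members. The study put 1 array in each group. The first group was SW480 cells made to overexpress the TFAP2E coding sequence (AP-2 epsilon, a transcription factor of the AP-2 family) from the pTarget mammalian expression vector. The other was SW480 cells with the same vector left empty, and the cells were Geneticin-selected for some weeks before single clones were picked. A difference between clones and a difference due to TFAP2E cannot be told apart with 1 array per group, and fewer cells expressing a gene cannot be told apart from less RNA per cell.

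Retinoic acid is made from vitamin A in successive oxidations. Retinol is oxidised to retinal by short-chain dehydrogenases, a step that DHRS3 runs backwards, and retinal is then oxidised irreversibly to retinoic acid by the ALDH1A enzymes. CRABP2 carries retinoic acid to the nucleus, where the retinoic acid receptors (RARs) bind DNA together with retinoid X receptors, and CYP26 enzymes hydroxylate retinoic acid for removal. In the intestine, retinoic acid is known for its part in epithelial differentiation and mucosal immunity, and RARB, CYP26A1 and DHRS3 are themselves classical retinoic acid target genes.

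The bases just before the transcript starts of the retinal dehydrogenase genes are shown because the introduced factor belongs to the AP-2 family, whose known recognition letters are GCCNNNGGC. The sequences are from RefSeq (GRCh38.p14), 250 bases each, ending at the base before the start, and capitals mark every match to these letters, which read the same on either strand. The ALDH1A3 window lies on the plus strand at chr15:100879581-100879830, the ALDH1A1 window on the minus strand at chr9:72953054-72953303, and the ALDH1A2 window, the more GC-rich of 2 listed for that gene, on the minus strand at chr15:58065712-58065961.
ALDH1A3: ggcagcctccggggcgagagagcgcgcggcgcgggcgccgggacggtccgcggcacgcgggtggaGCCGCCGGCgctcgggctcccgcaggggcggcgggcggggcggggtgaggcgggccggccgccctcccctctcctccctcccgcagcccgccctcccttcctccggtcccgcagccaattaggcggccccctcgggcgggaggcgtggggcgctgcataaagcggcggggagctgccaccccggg
ALDH1A1: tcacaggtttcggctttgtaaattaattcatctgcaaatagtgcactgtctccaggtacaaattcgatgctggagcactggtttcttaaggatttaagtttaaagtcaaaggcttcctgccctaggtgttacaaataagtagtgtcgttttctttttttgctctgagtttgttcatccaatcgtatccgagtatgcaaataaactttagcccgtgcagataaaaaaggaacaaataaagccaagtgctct
ALDH1A2: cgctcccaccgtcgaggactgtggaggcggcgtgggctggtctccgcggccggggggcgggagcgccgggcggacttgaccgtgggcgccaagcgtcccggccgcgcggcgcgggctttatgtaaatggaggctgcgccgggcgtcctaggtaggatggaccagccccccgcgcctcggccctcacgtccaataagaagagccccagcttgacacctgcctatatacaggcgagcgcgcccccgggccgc

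The ALDH1A3 window held 1 match, which begins 185 bases before the start, and the ALDH1A1 and ALDH1A2 windows held none. The GC content was 82.4% for ALDH1A3, 38.4% for ALDH1A1 and 72.8% for ALDH1A2. Of all 35116 RefSeq windows of this length, 19.8% held the letters, and of the 864 windows within 2 percentage points of the GC content of ALDH1A3, 59.7% did. Among the 19 windows listed for the 10 member genes, 4 held a match, 1 each of ALDH1A3, CYP26A1, RARA and RARB. A match is a description of the sequence and does not show that a factor binds there.

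RARB and CYP26A1 are shown for 1 form of the element through which RAR is known to act. This is a direct repeat of a short core with 5 bases between its copies. It was searched on both strands as GTTCA, then 6 bases of any kind, then GTTCA. Of the 35116 windows 17 held these exact letters (0.048%). Among them were 1 window of RARB and 1 of CYP26A1, and no other of the 19 member windows. The letters were set in advance as a known form, and both genes are known retinoic acid targets, so nothing is read from their presence here. Repeats with other core letters or spacing were not searched, so these counts do not cover every RAR element. The RARB element lies at chr3:25428204-25428233 and that of CYP26A1 at chr10:93073796-93073825, both printed on the plus strand with the repeat and its spacer in capitals. In the CYP26A1 sequence the repeat reads on the opposite strand. In no member window did the repeat overlap a match to GCCNNNGGC.
RARB: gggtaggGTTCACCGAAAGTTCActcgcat
CYP26A1: ttaaagaTGAACTTTGGGTGAACtaattgt

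Values are log2 values made by the authors with RMA, so that 1 unit is a doubling, and all differences are the TFAP2E array minus the empty vector array. A gene counted as measured when its higher value reached 5.55, the median over all values of both arrays, and was otherwise called dim. That median is not a detection limit. There was no replicate, and thus no test, error or p-value for any gene. Of 11548 measured genes, 13 were at least 2-fold lower on the TFAP2E array (0.113%), the central 95% of differences lay between -0.37 and 0.47, and the median was 0.04. The TFAP2E probe set itself read 6.81 on the TFAP2E array and 6.77 on the empty vector array (difference 0.04), so that the label of the TFAP2E array could not be checked from its own transcript. The sources used here do not say where in the transcript that probe set lies.

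Markers of the labelled cell type were not all level. Of 12 markers of colorectal epithelium, 10 were measured, with 3 higher and 7 lower on the TFAP2E array and a median of -0.08. VIL1, the microvillus protein villin, read 6.22 on the TFAP2E array and 4.94, under the filter value, on the empty vector array (difference 1.28, 2.43-fold higher). CDH1, the epithelial adhesion protein E-cadherin, read 6.38 on the TFAP2E array and 7.08 on the empty vector array (difference -0.71, 1.63-fold lower). ASCL2, an intestinal stem cell factor, differed by -0.54. The other 7 measured markers lay between -0.20 and 0.24, among them KRT19 and KRT8 at -0.20 each, EPCAM at -0.06, KRT18 at -0.02, LGALS4 at 0.22 and MYC at 0.24. EPCAM and KRT18 each had a second probe set of lower level, at -0.11 for EPCAM and -0.16 for KRT18. KRT8 (12.1 and 12.3 on the TFAP2E and empty vector arrays) and EPCAM (11.1 and 11.2) were at high levels on both arrays, whereas KRT20 (4.26 and 4.29) and CDH17 (3.27 and 3.44) were dim on both. Of 12 markers of leukocytes, fibroblasts and endothelium, 10 were dim, including PTPRC at 2.74 on both arrays. COL1A1 (6.45 and 6.40) and CD68 (6.60 and 6.02) were measured, and the part of these markers in the results below was not tested.

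**Figure D1:**
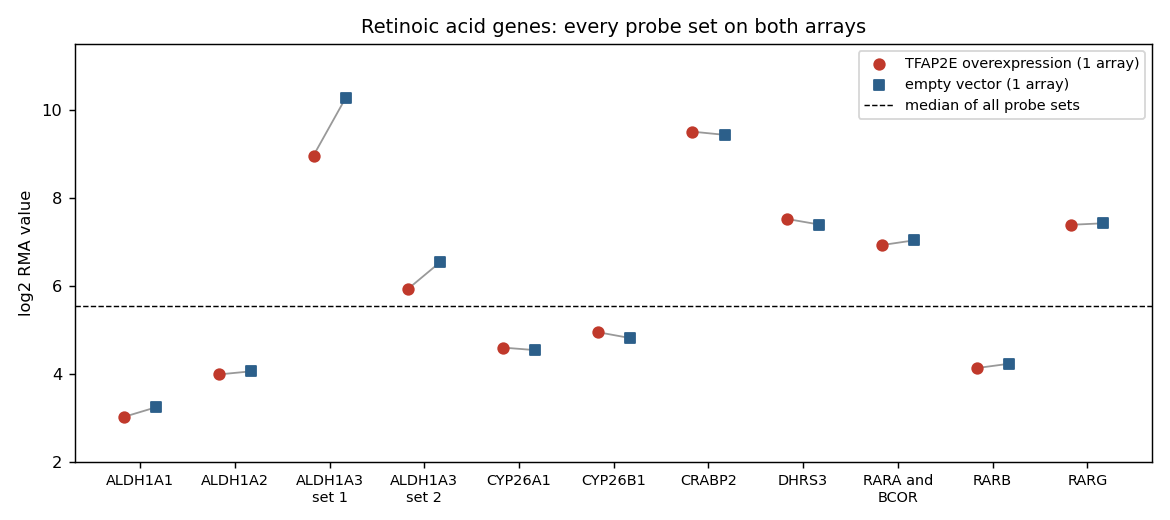
Log2 RMA value of every member probe set, with the TFAP2E overexpression array (circle) left of the empty vector array (square) and the median of all probe sets as a dashed line. ALDH1A3 is lower on the TFAP2E array by both of its probe sets, at 8.96 against 10.3 and at 5.93 against 6.54, while the lines of the other genes are nearly level.

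Of the retinal dehydrogenases, ALDH1A3 was the one that was measured, and it was lower in TFAP2E cells. Its main probe set, listed for 7 transcript records including both RefSeq mRNAs, read 8.96 on the TFAP2E array and 10.3 on the empty vector array. The difference was -1.31 on the log2 scale, which is 2.48-fold lower, and it was the third lowest of the 11548 genes, after DKK4 (-2.41), a secreted Wnt antagonist, and PARM1 (-1.68), a mucin-like membrane protein. ALDH1A3 makes retinoic acid from retinal and is known as a main source of aldehyde dehydrogenase activity in several epithelial cancers. ALDH1A1, another retinal dehydrogenase, which is widely used as a marker of stem-like cells in the colon, read 3.02 on the TFAP2E array and 3.24 on the empty vector array (difference -0.22). ALDH1A2, the main retinal dehydrogenase of the early embryo, read 3.99 and 4.06 on the same arrays (difference -0.07). Both genes lay well under the median of all probe sets on both arrays, so these differences are between dim values.

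The main probe set of ALDH1A3 lay outside the spread of genes at its level. Since the gene was chosen by this same difference, its place there is a description only. Among the 952 genes whose mean level was within 0.5 log2 units of its own, itself included, the central 95% of differences lay between -0.33 and 0.43. Of these, 3 reached 2-fold in either direction, and 2, ALDH1A3 and DKK4, lay as far from 0 as ALDH1A3 did.

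**Figure D2:**
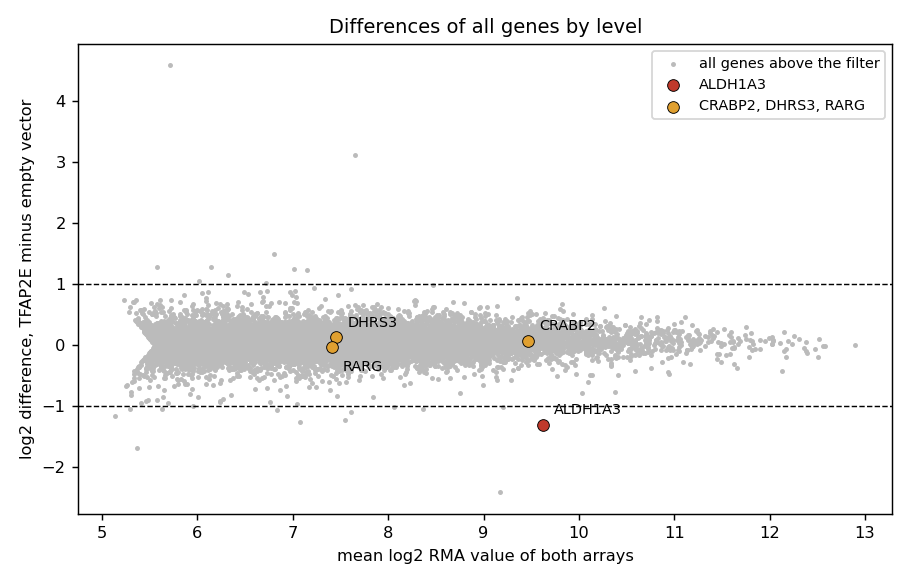
Log2 difference, TFAP2E minus empty vector, against the mean log2 value of both arrays for the 11548 measured genes, 1 point per gene, with dashed lines at 2-fold. ALDH1A3 at -1.31 lies below the cloud at its level, and CRABP2 (0.07), DHRS3 (0.13) and RARG (-0.03) lie inside it.

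The second probe set of ALDH1A3 was also lower on the TFAP2E array, by less. Listed for 1 cDNA record and no RefSeq mRNA, it read 5.93 on the TFAP2E array and 6.54 on the empty vector array, which is -0.61 on the log2 scale or 1.53-fold lower. With the mean of both probe sets the gene's difference was -0.96, under the 2-fold mark. The gap of 0.70 between the probe sets was wide for this array, though ALDH1A3 was picked for a large difference of its main probe set. Over the 448 genes with at least 2 measured probe sets the median gap was 0.05 and the 95th percentile 0.39, and 3 genes (0.67%) had a gap at least as wide as that of ALDH1A3. For 67 of the 448 genes both probe sets held identical values on both arrays, which narrows these gaps. ALDH1A3 was also the only one of the 448 genes for which both probe sets were at least 1.5-fold lower, with TET2 near at -0.63 and -0.55. Since ALDH1A3 was picked for the difference of its main probe set, nothing is read from this. The RefSeq table lists a transcript named ALDH1A3-AS1 across part of the same locus, and the sources used here do not say where in the locus the probe sets lie.

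**Figure D3:**
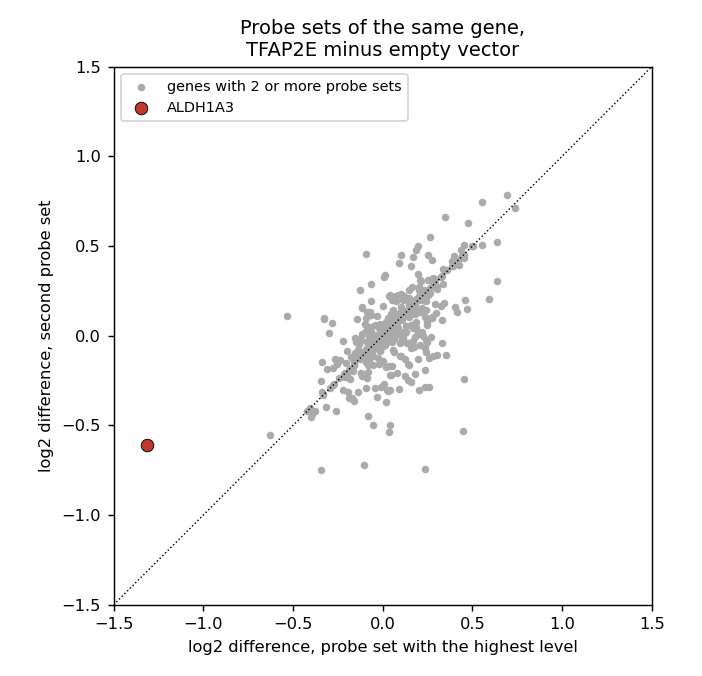
Log2 differences, TFAP2E minus empty vector, of the probe set with the highest level (horizontal) and of the second probe set (vertical) for 448 genes, with a dotted line of equality. ALDH1A3, at -1.31 and -0.61, lies farthest to the left and above the line.

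The carrier and the other enzymes differed little. CRABP2, the carrier that delivers retinoic acid to its receptors, read 9.51 on the TFAP2E array and 9.43 on the empty vector array (difference 0.07), and 56.1% of measured genes had a difference at or under this value. DHRS3, the reductase that returns retinal to retinol and that retinoic acid induces, read 7.52 and 7.39 on the same arrays, a difference of 0.13, with 67.3% of genes at or under it. The hydroxylases were dim on both arrays. CYP26A1, whose promoter element is printed above, read 4.60 on the TFAP2E array and 4.54 on the empty vector array (difference 0.06). CYP26B1, a related hydroxylase with its own tissue pattern, read 4.95 and 4.81, a difference of 0.13.

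Among the receptors, RARG, the gamma receptor that is prominent in skin and other epithelia, was the only one measured by a probe set of its own. It read 7.39 on the TFAP2E array and 7.42 on the empty vector array (difference -0.03), with 32.8% of genes at or under it. RARB, which carries the other printed element and is often used as a readout of retinoic acid signalling, was dim, at 4.13 on the TFAP2E array and 4.23 on the empty vector array (difference -0.10). The single probe set for RARA was listed for BCOR, a transcriptional corepressor, as well, and therefore gives no value for RARA alone. It read 6.93 on the TFAP2E array and 7.03 on the empty vector array (difference -0.11).

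In all, 9 of the 10 genes had at least 1 probe set of their own. Of these 9 genes 4 were measured and 5 were dim, and 1 of the 4, ALDH1A3, was at least 2-fold lower, where 0.113% of all measured genes were. Since ALDH1A3 was picked for that difference, nothing is read from this count. The 8 other genes, dim ones included, lay between -0.22 and 0.13, with 4 lower and 4 higher on the TFAP2E array. The difference of each lay inside the central 95% of measured genes, a range to which the 5 dim genes did not contribute.

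The wider retinoid pathway was described from lists of genes, 95 in all without the members. Of the 81 with a probe set of their own 46 were measured, 29 of them higher on the TFAP2E array, 15 lower and 2 at the same value. Their median difference was 0.07, beside 0.04 for all measured genes, of which 59.2% were higher and 39.5% lower. None of the 46 reached 2-fold. At 1.5-fold 1 was lower and 1 higher, LRP2 and RBP7, beside 0.606% and 0.892% of all measured genes.

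**Figure D4:**
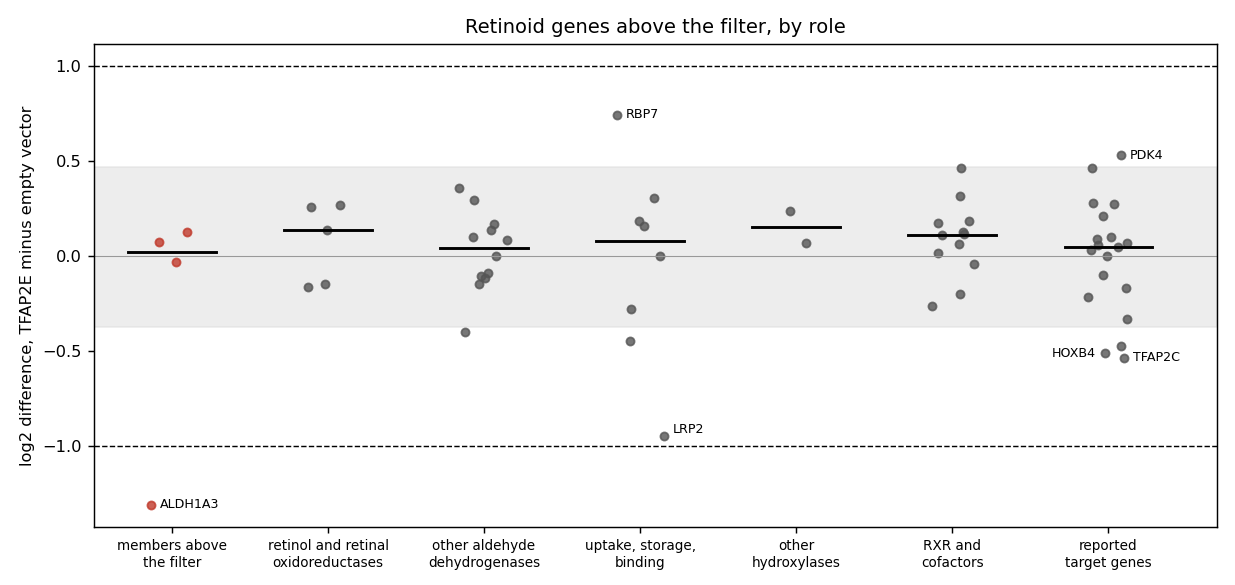
Log2 difference, TFAP2E minus empty vector, of the measured genes by role, 1 point per gene with the median as a bar. Dashed lines mark 2-fold and the grey band the central 95% of all measured genes, -0.37 to 0.47. Apart from ALDH1A3 at -1.31, no gene passes 2-fold, and LRP2 at -0.95 comes nearest.

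Upstream of the ALDH1A enzymes, 5 of the 17 retinol and retinal oxidoreductases with their own probe set were measured, with 3 higher and 2 lower and a median of 0.14. RDH10, the main retinol dehydrogenase of the embryo, read 7.18 on the TFAP2E array and 6.92 on the empty vector array (difference 0.26). RDH11, a retinal reductase, read 8.83 and 8.98 (difference -0.15). The alcohol dehydrogenase ADH5 was 0.27 higher, RDH13 0.14 higher and DHRS7 differed by -0.16. ADH1A (4.20 against 4.88) and the retinol dehydrogenase SDR16C5 (4.56 against 5.19) were dim on both arrays and passed 1.5-fold there, at -0.68 and -0.63.

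Other members of the aldehyde dehydrogenase superfamily, most of which act on aldehydes other than retinal, did not share the difference of ALDH1A3. Of 12 measured genes 6 were higher, 5 lower and 1 was equal on both arrays, with a median of 0.04, and none reached 1.5-fold. The lowest was ALDH3A1, which oxidises aromatic and medium-chain aldehydes, at 6.41 on the TFAP2E array and 6.81 on the empty vector array (difference -0.40). ALDH3A2 followed at -0.15 and ALDH16A1 at -0.12. The highest were ALDH3B1 at 0.35, the mitochondrial acetaldehyde enzyme ALDH2 at 7.96 and 7.67 (difference 0.29), and ALDH1B1 at 0.17. ALDH18A1, a proline synthesis enzyme, differed by 0.08, ALDH9A1 by 0.14, and ALDH7A1 read 9.58 on both arrays.

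Uptake, storage and binding genes held the widest differences among measured genes of the pathway outside ALDH1A3, at low levels. Of 8 measured genes 4 were higher, 3 lower and 1 equal, with a median of 0.08 and a mean of -0.04, of opposite sign. LRP2, the endocytic receptor megalin, which takes up retinol-binding protein in the kidney, read 5.22 on the TFAP2E array, under the filter value, and 6.17 on the empty vector array (difference -0.95, 1.93-fold lower). RBP7, a cellular retinol-binding protein, read 5.98 on the TFAP2E array and 5.24, under the filter value, on the empty vector array (difference 0.74, 1.67-fold higher). STRA6, the cell-surface retinol transporter, which retinoic acid is known to induce, read 8.53 and 8.81 (difference -0.28). The lipase LPL differed by -0.45, the retinal-binding RLBP1 by 0.30, the acyltransferase DGAT1 by 0.18 and the carotenoid and lipoprotein receptor SCARB1 by 0.15.

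Of the other hydroxylases, CYP26C1 read 6.18 on the TFAP2E array and 5.95 on the empty vector array (difference 0.24), and CYP2S1 read 7.17 and 7.11 (difference 0.06). These were the 2 measured of 5. Among retinoid X receptors and cofactors 9 of 12 measured genes were higher and 3 lower, with a median of 0.11 and none past 1.5-fold. RXRA, the partner of RAR in most epithelia, read 7.09 and 7.03 and RXRB 7.25 and 7.14 on the TFAP2E and empty vector arrays. NRIP1, a corepressor that retinoic acid induces, read 6.35 on the TFAP2E array and 5.89 on the empty vector array (difference 0.46) and was the highest, before the corepressor subunit TBL1XR1 at 0.31 and the demethylase KDM1A at 0.18. The acetyltransferases CREBBP (-0.27) and EP300 (-0.20) and the coactivator NCOA1 (-0.04) were lowest, and the Mediator subunit MED1 differed by 0.11. PRAME, a tumour antigen reported to repress RAR signalling, was dim on both arrays at 5.02 against 4.14 (difference 0.87).

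Genes reported elsewhere to respond to retinoic acid were split in direction. Of 19 measured genes 11 were higher, 7 lower and 1 equal, with a median of 0.04, the same as for all genes to this precision, and a mean of -0.01. None reached 1.5-fold. TGM2, transglutaminase 2, a classical induced gene, read 10.7 on the TFAP2E array and 11.2 on the empty vector array (difference -0.48). HOXB4, a homeobox gene, read 6.84 and 7.35 (difference -0.51). TFAP2C, another AP-2 factor, read 6.80 and 7.33 (difference -0.54). On the other side was PDK4, a kinase that restrains pyruvate oxidation, with a difference of 0.53. It read 5.83 on the TFAP2E array and 5.30, under the filter value, on the empty vector array. BHLHE41 at 0.46, GATA6 at 0.28, BHLHE40 at 0.21 and EGR1 at 0.04 were also named by rule. RARRES1, named for its response to retinoids, was dim at 3.82 and 3.99.

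The difference of ALDH1A3 was set beside those of the genes around it, a comparison added after the values were seen. In the order of the RefSeq table, the 5 measured genes before it and the 5 after it had a median difference of 0.01, with 5 higher, 4 lower and 1 equal. The nearest measured gene before it, the long noncoding RNA LOC440313, read 5.58 on the TFAP2E array and 6.31 on the empty vector array (difference -0.72). The nearest after it, the kinase gene LRRK1, read 6.75 and 7.11 (difference -0.36). The other 8 lay between -0.14 for ADAMTS17 and CHSY1 and 0.35 for SNRPA1. On the empty vector array SNRPA1 read 5.53, under the filter value. LOC440313 was the only neighbour outside the central 95% of measured genes.

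**Figure D5:**
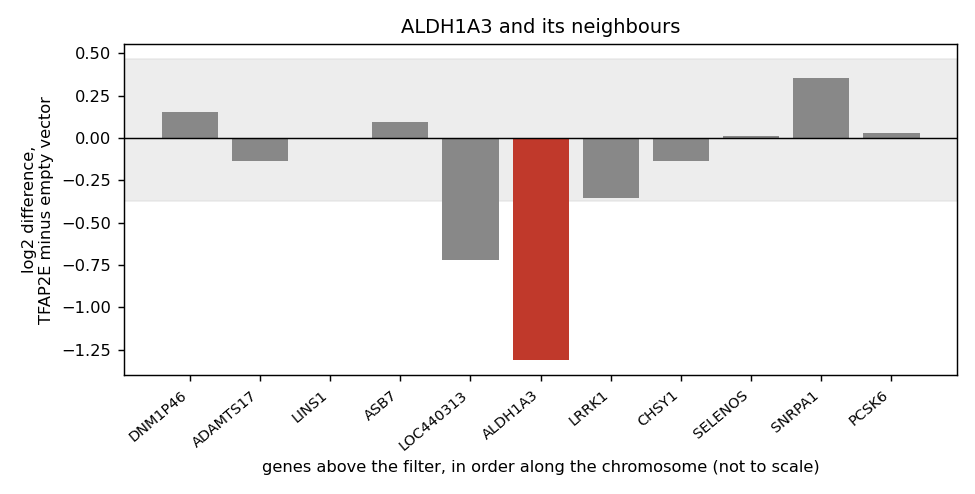
Log2 difference, TFAP2E minus empty vector, of ALDH1A3 and the 5 measured genes on each side, in order along the chromosome and not to scale, with the central 95% of measured genes as a grey band. The bars beside ALDH1A3 at -1.31 are LOC440313 at -0.72 and LRRK1 at -0.36, and those farther out lie between -0.14 and 0.35.

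By the size of the difference over the 2 arrays, the measured genes most like ALDH1A3 were PSG1, a pregnancy-specific glycoprotein whose probes may also match close family members, at 0.05 log2 units from it, GABRA3, a GABA receptor subunit, at 0.08, CSGALNACT1, a chondroitin sulfate enzyme, at 0.15, NEDD9, an adhesion scaffold, at 0.21, and FGF9, a growth factor, at 0.25. PSG1 read 6.44 on the TFAP2E array and 7.70 on the empty vector array (difference -1.27). CSGALNACT1 read 4.56 on the TFAP2E array, under the filter value, and 5.72 on the empty vector array. With 2 arrays this likeness rests on 1 difference per gene.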

How the data were processed

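Total RNA of SW480 cells was hybridised to 2 Affymetrix arrays, 1 per group. Per the submitters' processing notes, the authors made the deposited log2 values with RMA, which corrects background, equalises the distributions of the arrays and summarises probes into probe sets. A shift of all transcripts together would not appear. Software, version and genome build were not given in the sources used here. Scanner files were not used.

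The platform annotation gave the names: 19460 probe sets had 1 gene symbol, 1754 had several and 12083 had none. Symbols were updated by Entrez identifier in the RefSeq table (GRCh38.p14), where 19429 matched. For a gene with several probe sets, the one with the highest mean stood for it, which gave 18417 genes. Of these, 11548 passed the filter and 6869 were dim. All 10 members had RefSeq promoter windows. Calculations used Python 3.11.15, pandas 2.3.3 and statsmodels 0.14.6, and the scripts were tested on simulated data.

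Members, lists and tests were chosen with earlier results of these data known. Named list genes are the 3 highest, 3 lowest and 3 of highest level among measured genes of a list (all where 6 or fewer), and those past 1.5-fold. RXRA, RXRB, RARRES1, KRT20, CDH17, PTPRC, DKK4, PARM1 and the neighbours were named after their values were seen. Alternatives were 3 scalings, 2 filters, other summaries of probe sets, a floor and other thresholds. The number of arrays limits the precision.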

Additional observations from a re-analysis of the deposited data

How the results depend on the processing

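The difference of ALDH1A3 stayed between -1.36 and -1.29 under 3 other scalings (centring, quantile normalization, removal of a loess trend) and a floor at the 20th percentile. It moved to -0.96 with the mean of both probe sets and to -0.61 with the second probe set alone, because that set differed less. Of 40 values of the other members 39 moved by under 0.219, the standard deviation over all measured genes. ALDH1A1 became 0 with the floor, since both of its values lie under it. Of 385 values of the other genes named here, 384 moved by under that amount, and the neighbour DNM1P46 moved to -0.07 with its second probe set. The values of ALDH7A1, EGR1, KRT18, KRT20, PTPRC, LINS1 and SELENOS, all near 0, changed sign or left 0 under some scalings. Over 9 alternatives the value of the retinoid lists ran from 0.03, with the mean in place of the median, to 0.10. Of these alternatives, the inclusion of the other aldehyde dehydrogenases (0.07) was chosen after seeing the data. Over all genes, 10 were at least 2-fold higher and 13 lower. These counts became 5 and 8 with the 75th percentile filter, 103 and 70 at 1.5-fold and 2 and 2 at 3-fold, as the settings are built. With all probe sets, those without a single gene symbol included, they became 21 and 75. Adding probe sets can only raise the counts, but the setting does not fix the larger rise among lower ones. Which probe sets account for it was not tested. The median of all measured genes was 0.07 after centring, 0.02 after quantile normalization and 0.01 after the loess step. No paired analysis was possible because there is a single array per group.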
